A study of Mus musculus with 18 samples.

Results

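Direct cardiac reprogramming was compared between cells that carried short hairpin RNAs (shRNAs) against both Mtfr1l and Opa1 and cells that carried the Mtfr1l hairpin alone. The comparison holds 3 libraries of the double knockdown (labelled shMtfr1l+shOpa1) and 3 of shMtfr1l, chosen by their labels, which are 6 of the 18 samples of the series. It asks what lowering Opa1 added in cells where Mtfr1l was already lowered. All 6 samples were primary cardiac fibroblasts from the hearts of neonatal CD1 mice, transduced with a retrovirus carrying Mef2c, Gata4 and Tbx5 on 1 transcript (MGT), which turns part of a fibroblast culture into cardiomyocyte-like cells. The study asks how loss of Mtfr1l improves this conversion. A pair of further groups served as reference and received the same retrovirus: shNT, the control hairpin, and shOpa1, the Opa1 hairpin alone, with 3 libraries each. No sorting of the cells is named in the labels, so each library may mix converted and unconverted cells. Replicates 1, 2 and 3 of every group are tied by their titles to days 7, 8 and 9, and the labels leave unsaid whether animals or isolations differed between them. P-values therefore measure the spread between these libraries, which also holds any effect of the day. In the genotype field the Opa1 hairpin reads shOpa1, shOpa2 and shOpa3 over the 3 replicates, alone or beside shMtfr1l, while the titles say shOpa1 throughout, with the meaning of these digits not given in the sources used here.

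As background, Opa1 is a dynamin-like GTPase of the inner mitochondrial membrane that fuses inner membranes and holds cristae in shape. Mtfr1l, mitochondrial fission regulator 1-like, is a mitochondrial outer membrane protein known for restraining Opa1-dependent fusion, so the hairpins touch opposing sides of the same network. When Opa1 is lost, cells are known to raise the mitochondrial integrated stress response, in which ATF4 drives amino acid transport, serine synthesis and transfer RNA charging, and cardiomyocytes depend on fused, cristae-rich mitochondria for contraction.

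The total gene counts of the 6 libraries ran from 17175325 to 25317069, and each double-knockdown library (21590643 to 25317069) was deeper than each shMtfr1l library (17175325 to 19740165). Levels are given as CPM, the counts divided by library size after scaling by the trimmed mean of M values (TMM), and 3 counts corresponded to 0.118 to 0.175 CPM in these libraries. These floors cover counting error only. Replicates of a group differed from each other by far more than sampling noise, with a chi-square per gene of 5.32 to 10.04, so no replicate was a copy of another. Fold changes are given as log2 of the double knockdown over shMtfr1l with their SE, from 3 against 3 libraries, and a gene is said to have risen or fallen where its adjusted p was under 0.05 (edgeR quasi-likelihood test, Benjamini-Hochberg over 14162 genes).

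The hairpin targets were measured first. Opa1 (chr16:29579334-29654602, plus strand, mm10) stood at 70.7, 72.2 and 73.4 CPM in the shMtfr1l libraries and at 20.7, 16 and 18.2 CPM in the double knockdown (log2 fold change -1.98 ± 0.17, adjusted p = 2.26e-06). The groups did not overlap, and an exact permutation test gave p = 0.1, the smallest value that 3 against 3 libraries allow. Without Mtfr1l knockdown, Opa1 was at 57.0, 72.6 and 59.7 CPM in shNT and at 7.43, 6.85 and 12.6 CPM in shOpa1. The Opa1 level left in the double knockdown was thus above that in each shOpa1 library. The difference of the 2 responses did not pass the main test (difference of log2 fold changes 0.84, adjusted p = 0.104), but this depended on the setting. By edgeR it passed with no low-count filter (adjusted p = 7.39e-06) and without robust shrinkage (0.0322). It also passed without replicate 3 of all 4 groups (difference 1.22, adjusted p = 0.000461). Mtfr1l (chr4:134525555-134535387, minus strand) was not equal in the groups compared: it stood at 15.8, 13.9 and 19.6 CPM in shMtfr1l and at 22.8, 31.0 and 27.8 CPM in the double knockdown (log2 fold change 0.73 ± 0.11, adjusted p = 5.27e-06). Here too the groups did not overlap (exact permutation p = 0.1). Both groups lay far below shNT, with 69.4, 69.5 and 76.7 CPM. The response of Mtfr1l to Opa1 knockdown differed with and without its own hairpin (difference 0.78, adjusted p = 0.00146). That difference did not pass without replicate 2 of all 4 groups (0.605, edgeR adjusted p = 0.108). Any result below can therefore come with less Opa1 or with somewhat more Mtfr1l, and these cannot be told apart. The plot of the targets shows both genes in all 12 libraries.

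**Figure D1:**
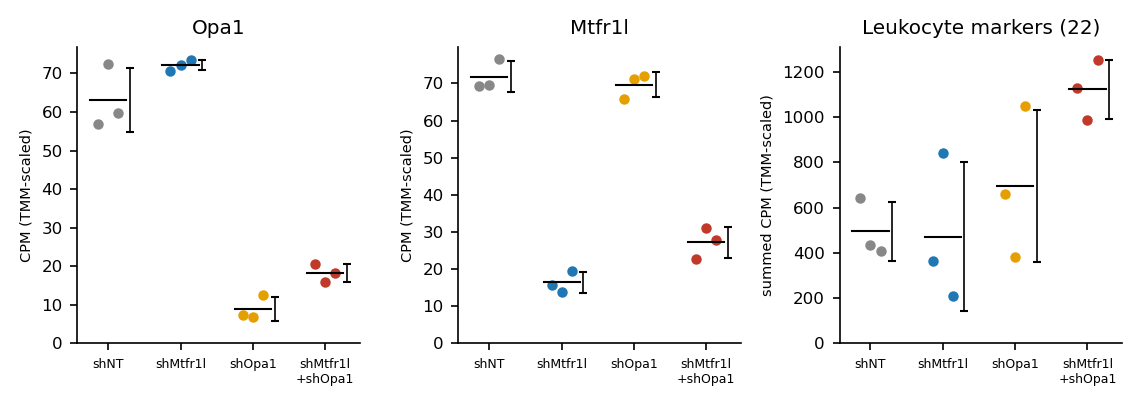
Level of Opa1 (left), Mtfr1l (middle) and the summed level of 22 macrophage and leukocyte marker genes (right), in TMM-scaled CPM on linear axes from 0, in each of the 12 libraries of the 4 groups; the horizontal line is the mean of 3 libraries and the bar beside it the SD. Opa1 was lowest where its hairpin was present, Mtfr1l was 22.8 to 31.0 CPM in the double knockdown against 13.9 to 19.6 CPM in shMtfr1l, and the leukocyte sum was 990 to 1253 CPM in the double knockdown against 209 to 842.5 CPM in shMtfr1l.

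Markers of other cells were summed in each library. The 22 macrophage and leukocyte markers came to 363, 842.5 and 209 CPM in shMtfr1l and to 1128, 990 and 1253 CPM in the double knockdown, so the groups did not overlap. Of the 20 that could be tested, all had a fold change above 0, with a median log2 fold change of 1.30. Only 2 passed the test (10%, near the 9.72% of all genes that rose), the receptor Cx3cr1 and the actin regulator Coro1a. With the replicate number as a block neither passed by edgeR (adjusted p = 0.0587 for Cx3cr1 and 0.0703 for Coro1a), nor with the 6 libraries alone (0.0926 and 0.0863). The T-cell gene Cd3e was at 0 counts in all 6 libraries. The count rested on the libraries: 14 passed without shMtfr1l replicate 2 (median 2.17), Coro1a did not pass without any 1 of the other 5 libraries, and Cx3cr1 did not pass without shMtfr1l replicate 1 or without replicate 1 or 3 of the double knockdown. In bulk libraries more cells of a type and more RNA per cell cannot be told apart. Adipocyte markers stood apart in shMtfr1l replicate 1, where Adipoq had 292 counts against 0 counts in each of the other 5 libraries. The 9 adipocyte markers summed to 914.7 to 1051 CPM in shMtfr1l and to 756 to 855 CPM in the double knockdown. Most of each sum was Lpl alone, at 914.4, 891.4 and 891.6 CPM in shMtfr1l and 736.3, 833.3 and 727.1 CPM in the double knockdown. Of the 5 adipocyte markers tested 2 fell, Plin4 and Lpl. The part of these cells in the results below was not tested. Endothelial markers summed to 842 to 923 CPM in shMtfr1l and 912 to 948 CPM in the double knockdown, and epicardial markers to 508 to 552 CPM and 620 to 652 CPM. Of 16 epicardial and mesothelial markers 4 rose (25%, against 9.72% of all genes) and 1 fell (6.25%, against 11.7%). Among the rises were the guidance ligand Sema3d (log2 fold change 0.40, adjusted p = 1.53e-06), the retinoic acid enzyme Aldh1a2 (0.39, adjusted p = 1.03e-05) and the zinc finger gene Bnc1 (0.63, adjusted p = 0.000866). Of 17 endothelial markers 3 rose (17.6%) and 1 fell (5.88%). By edgeR 1 rose without shMtfr1l replicate 3, and none fell without shMtfr1l replicate 1 or double-knockdown replicate 2 or 3. The angiopoietin receptor Tek was among the rises (log2 fold change 0.62, adjusted p = 0.000979). Of 7 Schwann and neural markers 1 passed, the myelin gene Mbp, which rose by 0.90 (log2; adjusted p = 0.000737). Of 7 skeletal muscle markers tested 1 rose, which did not pass without replicate 2 of either group or replicate 3 of the double knockdown, and with the replicate block 1 also fell. The skeletal muscle regulators Myod1, Myf5, Myf6 and Pax7 were at 0 counts in all 6 libraries. Defining genes of the labelled cell types were present in all 6 libraries, with 2460.0 to 3759 CPM for the mesenchymal filament gene Vim, 4456 to 7767 CPM for the collagen gene Col3a1 and 1524 to 2579 CPM for the cardiomyocyte gene Tnnt2.

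Across the transcriptome, 3041 of the 14162 genes passed (21.5%). Of these 1377 rose (9.72%) and 1664 fell (11.7%), and the median log2 fold change was 0.003. Most changes were small: 166 genes rose by more than 2-fold (1.17%) and 142 fell by more than 2-fold (1%). For 5235 genes (37%) the values of the 2 groups did not overlap. Against a 1.2-fold change as the null, 924 genes passed, 357 higher and 567 lower. Without replicate 1 of all 4 groups 1964 genes passed against no change. The plot of fold change against level shows where the named genes lie.

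**Figure D2:**
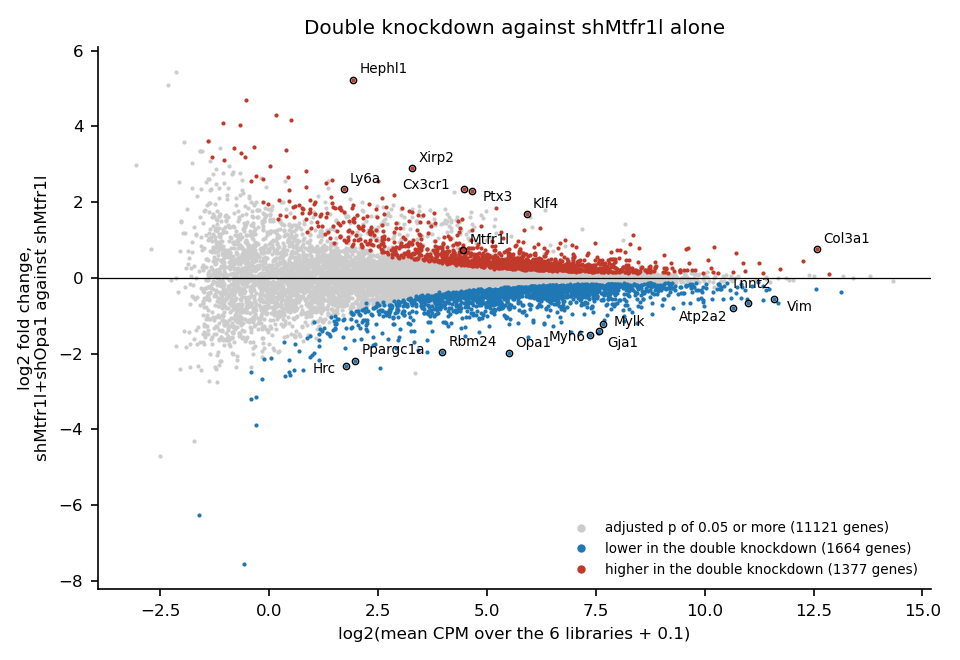
Each point is 1 of 14162 genes; the horizontal axis is log2 of its mean CPM over the 6 libraries plus 0.1 and the vertical axis its log2 fold change of the double knockdown over shMtfr1l. Red marks the 1377 genes that rose and blue the 1664 that fell at adjusted p under 0.05; abundant genes such as Col3a1 (log2 fold change 0.75) and Vim (-0.56) moved by less than the less abundant Hephl1 (5.24) and Opa1 (-1.98).

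Among genes with at least 2 CPM on average and groups that did not overlap, the largest rise was that of Hephl1, a copper-dependent ferroxidase gene. It had 6, 2 and 2 counts in the shMtfr1l libraries and 183, 161 and 172 counts in the double knockdown, or 7.59, 6.26 and 7.84 CPM (log2 fold change 5.24 ± 0.37, adjusted p = 8.24e-14). With so few counts in shMtfr1l the fitted fold depends on the prior count. Xirp2, which codes for an actin-binding protein of muscle cell junctions, stood at 2.13, 2.80 and 1.91 CPM and rose to 19.5, 15.8 and 15.9 CPM (log2 fold change 2.90 ± 0.22, adjusted p = 3.81e-13). The secreted pattern recognition protein Ptx3 went from 8.47, 8.00 and 9.11 CPM to 44.8, 46.0 and 35.3 CPM (log2 fold change 2.30 ± 0.12, adjusted p = 1.05e-17). Tlr5, the flagellin receptor (log2 fold change 2.59, adjusted p = 1.36e-06), and Ly6a, the Sca-1 surface antigen (2.34, adjusted p = 3.37e-06), also rose. The other 5 of the 10 largest rises were Rgs1 (2.56), P2ry13 (2.50), Cx3cr1 (2.34), Lyl1 (2.20) and Runx3 (2.14), which are known from blood cells. In the shMtfr1l libraries each of these 5, and also Xirp2 and Tlr5 among the 10, was highest in replicate 2 and lowest in replicate 3, as the leukocyte sum was: Cx3cr1 stood at 7.74, 12.7 and 1.51 CPM there and at 38.2, 31.1 and 42.2 CPM in the double knockdown. For Xirp2 that order rested on 41, 48 and 33 counts. The same order held for 73 of the 166 genes that rose by more than 2-fold (44.0%), for 16.6% of all genes tested and for 9.86% of genes that fell by more than 2-fold. The risen and fallen genes were picked by fold changes from these same libraries, so the shares are descriptions. The part of leukocytes in the rises was not tested. Without shMtfr1l replicate 1 none of these 5 passed the edgeR test (adjusted p = 0.0515 for Rgs1, 0.144 for P2ry13, 0.0704 for Cx3cr1, 0.105 for Lyl1 and 0.0589 for Runx3), and Coro1a did not pass either (adjusted p = 0.108). P2ry13 did not pass either without any 1 of the other libraries except shMtfr1l replicate 2 (adjusted p 0.0546 to 0.0714), Lyl1 without shMtfr1l replicate 3 or double-knockdown replicate 1 or 3 (0.0619 to 0.0784), Cx3cr1 without double-knockdown replicate 1 or 3 (0.0587 and 0.0621), and Coro1a without shMtfr1l replicate 3 or any double-knockdown library (0.066 to 0.0832). With the replicate number, which the titles tie to the day, as a block, P2ry13 and Lyl1 did not pass either by edgeR (adjusted p = 0.0797 and 0.0639).

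The 10 largest falls were led by Ppp1r3a, the glycogen-targeting subunit of muscle protein phosphatase 1, which went from 11.6, 8.00 and 9.51 CPM to 2.95, 1.63 and 1.00 CPM (log2 fold change -2.37 ± 0.31, adjusted p = 2.57e-07). Hrc, a calcium-binding protein of the sarcoplasmic reticulum, fell from 5.09, 5.55 and 6.03 CPM to 1.54, 1.09 and 0.638 CPM (log2 fold change -2.34 ± 0.40, adjusted p = 2.6e-05). Rbm24, a splicing regulator of heart muscle, fell from 27.8, 21.3 and 25.8 CPM to 5.14, 7.28 and 6.66 CPM (log2 fold change -1.97 ± 0.18, adjusted p = 6.26e-11). Opa1 itself, the coactivator Ppargc1a (-2.19), the myosin-binding protein Mybphl (-2.17), the melanocortin receptor accessory protein Mrap2 (-1.96), Txlnb (-1.90), the Wnt agonist Rspo2 (-1.85) and C130080G10Rik (-1.86) made up the rest. Mybphl did not pass without replicate 1 of the double knockdown (log2 fold change -1.87, adjusted p = 0.0606). Several of these falling genes belong to muscle, which the lists below describe.

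Most genes of the contractile apparatus fell. Of 38 sarcomere genes tested 25 fell (65.8%, against 11.7% of all genes) and 2 rose, with a median log2 fold change of -0.70 against 0.003 for all genes. Tnnt2, the cardiac troponin T of the thin filament, stood at 2534, 2407 and 2579 CPM in shMtfr1l and at 1597, 1621 and 1524 CPM in the double knockdown (log2 fold change -0.67 ± 0.04, adjusted p = 5.65e-15). Myl4, the atrial essential myosin light chain, fell from 1616, 1554 and 1729 CPM to 1089, 1152 and 1081 CPM (log2 fold change -0.56 ± 0.05, adjusted p = 1.58e-11). Ldb3, a Z-disc protein, fell from 209.6, 179 and 201 CPM to 116, 117 and 116 CPM (log2 fold change -0.76 ± 0.07, adjusted p = 2.56e-11). All 3 genes separated the groups with gaps wider than the spread within either group. Among members named after their values were seen, Myh6, the alpha myosin heavy chain, went from 263, 232 and 241 CPM to 73.5, 82.6 and 104 CPM (log2 fold change -1.50 ± 0.15, adjusted p = 8.49e-05). Cardiac actin Actc1 fell by 1.13 (log2; adjusted p = 8.27e-07), the Z-disc crosslinker Actn2 by 1.4 (2.48e-06) and cardiac troponin I, Tnni3, by 1.31 (1.71e-08). The exceptions in direction were Xirp2 and Synpo2l, an actin-associated Z-disc protein at 49.6, 42.0 and 49.1 CPM in shMtfr1l and 57.7, 69.1 and 59.4 CPM in the double knockdown (log2 fold change 0.41 ± 0.09, adjusted p = 0.000844). The summed sarcomere level was 8008 to 8569 CPM in shMtfr1l and 5592 to 5783 CPM in the double knockdown, beside 6343 to 6588 CPM in shNT. Leaving out any 1 of the 6 libraries left 23 to 25 members falling.

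MEF2, 1 of the delivered factors, binds an A/T-rich element in muscle promoters. Promoter windows of 250 bases before to 50 bases after the start were taken from RefSeq (GRCm38.p6) and matched 11213 of the 14162 genes, and the MEF2 element was searched by its consensus on both strands, a search chosen after the list results were seen. It was found in 5 of 32 sarcomere genes with a window (15.6%), against 243 of all 11213 genes (2.17%). These were Mybpc3 and Ttn of the 22 with a window that fell (9.09%), Xirp2 and Synpo2l, the 2 that rose, and 1 of the 8 that did not pass (12.5%). Mybpc3, cardiac myosin-binding protein C, fell by 1.27 (log2; adjusted p = 1.18e-07), and titin, Ttn, by 1.27 (adjusted p = 0.00174). The stretches below show the element in capitals in 2 genes that fell and 1 that rose, at chr2:91118028-91118089 (plus strand), chr2:76982678-76982739 (minus strand) and chr2:67445902-67445963 (plus strand), with the match ending 81, 157 and 65 bases before the start. A match of letters is a description and does not show binding.
Mybpc3: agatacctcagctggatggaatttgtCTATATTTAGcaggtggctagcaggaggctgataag
Ttn: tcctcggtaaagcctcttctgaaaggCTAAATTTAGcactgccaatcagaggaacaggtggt
Xirp2: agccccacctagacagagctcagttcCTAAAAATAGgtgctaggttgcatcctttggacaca

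Most calcium-handling and channel genes fell as well. Of 32 tested 20 fell (62.5%), 1 rose, and the median log2 fold change was -0.76. Gja1, the gap junction protein connexin 43, was at 281, 268 and 277 CPM in shMtfr1l and at 102, 108 and 104 CPM in the double knockdown (log2 fold change -1.39 ± 0.06, adjusted p = 5.61e-20). Sln, the sarcolipin that restrains the sarcoplasmic calcium pump, fell from 97.4, 84.5 and 94.2 CPM to 28.5, 32.7 and 32.3 CPM (log2 fold change -1.56 ± 0.11, adjusted p = 9.49e-14). Kcnj5, an atrial inward rectifier potassium channel, fell from 208, 185 and 196 CPM to 98.2, 108 and 98.9 CPM (log2 fold change -0.95 ± 0.06, adjusted p = 1.94e-14). The 3 double-knockdown libraries lay close together and below all shMtfr1l libraries in each of these genes. Slc8a1, the sodium-calcium exchanger, fell by 0.72 (log2; adjusted p = 6.29e-11). Of the members named after their values were seen, the calcium pump Atp2a2 stood at 2178, 1946 and 2034 CPM in shMtfr1l and at 1145, 1167 and 1214 CPM in the double knockdown (log2 fold change -0.80 ± 0.06, adjusted p = 8.05e-10), and the release channel Ryr2 fell by 0.79 (log2; adjusted p = 7.05e-05). The only member that rose was Asph (log2 fold change 0.52, adjusted p = 1.68e-08), whose locus codes for junctin and for an aspartyl hydroxylase. Between 18 and 21 members fell when any 1 library was left out.

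Some regulators of heart gene expression fell. Of 19 cardiac transcription regulators tested 7 fell (36.8%) and the other 12 did not pass, with a median log2 fold change of -0.29; 4 fell without replicate 1 of the double knockdown. Tbx20 went from 1173, 1034 and 1119 CPM to 862, 840.4 and 886 CPM (log2 fold change -0.36 ± 0.05, adjusted p = 4.25e-06), Tbx18 fell by 0.40 (log2; adjusted p = 2.84e-06) and the muscle methyltransferase Smyd1 by 1.78 (adjusted p = 0.000187). The factors carried by the retrovirus were read together with the endogenous genes. Mef2c stood at 349.8, 328 and 296 CPM in shMtfr1l and at 292, 278 and 279 CPM in the double knockdown (log2 fold change -0.20 ± 0.06, adjusted p = 0.0207). Gata4 fell by 0.19 (log2; adjusted p = 0.00851) and Tbx5 by 0.20 (adjusted p = 0.0109). The 3 factors were 1.14 to 1.15-fold lower in the double knockdown, and none of them passed without shMtfr1l replicate 1 (edgeR adjusted p = 0.155 for Mef2c, 0.0893 for Gata4 and 0.102 for Tbx5). Mef2c also did not pass without shMtfr1l replicate 2 (0.0587) or double-knockdown replicate 2 or 3 (0.0793 and 0.0741), nor Tbx5 without double-knockdown replicate 2 (0.0769). The part of this difference in the falls of the muscle genes was not tested.

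Of 26 other cardiomyocyte genes 15 fell (57.7%) and the other 11 did not pass (median log2 fold change -0.68). Fhl2, a LIM-domain partner of muscle transcription factors, fell from 1131, 1112 and 1192 CPM to 804, 829.7 and 759 CPM (log2 fold change -0.52 ± 0.05, adjusted p = 8.42e-11). Pgam2, the muscle phosphoglycerate mutase, fell by 0.90 (log2; adjusted p = 2.14e-11) and the small heat shock protein Hspb7 by 0.44 (adjusted p = 1.4e-08). Myoglobin, Mb, named after its values were seen, went from 33.5, 30.5 and 32.2 CPM to 9.29, 14.4 and 15.2 CPM (log2 fold change -1.31 ± 0.17, adjusted p = 1.61e-07). Corin, the protease that activates the atrial natriuretic peptide, fell by 1.44 (log2) and the peptide gene Nppa by 0.80, both chosen in the same way. The plot of 12 genes by library shows the falls of the muscle genes beside the other groups described below.

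**Figure D3:**
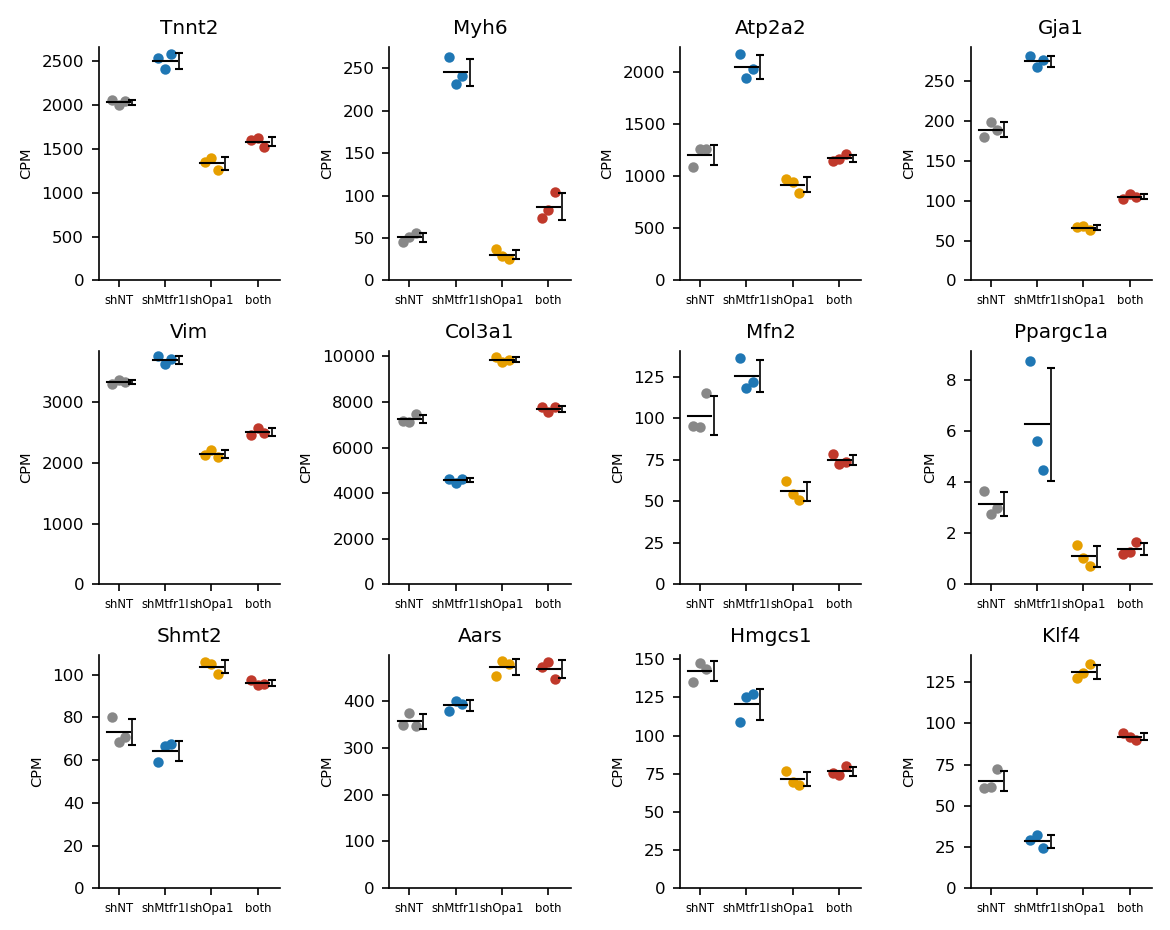
Level in TMM-scaled CPM (linear axes from 0) of 12 genes in each of the 12 libraries; the line is the mean of 3 libraries, the bar the SD, and "both" stands for the double knockdown. Tnnt2, Myh6, Atp2a2, Gja1, Vim, Mfn2, Ppargc1a and Hmgcs1 were lower in all 3 double-knockdown libraries than in any shMtfr1l library, and Col3a1, Shmt2, Aars and Klf4 were higher.

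Fibroblast and matrix genes moved in both directions. Of 31 fibroblast identity genes 7 rose (22.6%) and 9 fell (29.0%), with a median log2 fold change of -0.02. Vim, the intermediate filament vimentin, fell from 3759, 3630.0 and 3711 CPM to 2460.0, 2582 and 2495 CPM (log2 fold change -0.56 ± 0.04, adjusted p = 2.37e-14). Mfap4, a microfibril-associated protein, fell from 311, 304 and 299.9 CPM to 196, 177 and 196 CPM (log2 fold change -0.69 ± 0.06, adjusted p = 3.07e-12), whereas its relative in name Mfap5 rose from 12.6, 8.94 and 10.2 CPM to 31.7, 30.2 and 27.4 CPM (log2 fold change 1.49 ± 0.13, adjusted p = 1.87e-11). The groups were apart in each. Of 51 collagen and matrix genes 17 rose (33.3%) and 17 fell (33.3%), against 9.72% and 11.7% of all genes. Col3a1, the fibrillar collagen III chain (chr1:45311538-45349706, plus strand), stood at 4633, 4456 and 4634 CPM in shMtfr1l and at 7767, 7556 and 7766 CPM in the double knockdown (log2 fold change 0.75 ± 0.03, adjusted p = 5.41e-19), with no overlap between the groups. Thrombospondin 1, Thbs1, rose by 0.43 (log2; adjusted p = 2.73e-11). The laminin chain Lamc1 fell from 1324, 1277 and 1238 CPM to 739, 759 and 779 CPM (log2 fold change -0.75 ± 0.05, adjusted p = 2.32e-15). The collagen crosslinking enzyme Lox, named after its values were seen, fell by 0.24 (log2; adjusted p = 3.43e-05).

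Many myofibroblast and smooth muscle genes fell. Of 31 tested 15 fell (48.4%) and 1 rose, with a median of -0.17 (log2). Mylk, the smooth muscle myosin light chain kinase, fell from 304, 278 and 273 CPM to 119.9, 119 and 128 CPM (log2 fold change -1.22 ± 0.06, adjusted p = 1.73e-17). The integrin chain Itga8 fell by 0.75 (log2; adjusted p = 8.14e-14) and the growth factor Tgfb3 by 0.48 (adjusted p = 9.66e-09).

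Genes of mitochondrial fusion and fission were called about as often as all genes. Of 22 fusion and fission genes, which do not include Opa1, 3 fell (13.6%, against 11.7% of all genes) and 2 rose (9.09%, against 9.72%); at most 1 rose when any 1 library was left out. Mfn2, the mitofusin of the outer membrane, fell from 136, 118 and 122 CPM to 78.3, 72.4 and 73.4 CPM (log2 fold change -0.75 ± 0.08, adjusted p = 4.85e-09), with no overlap between the groups. Of 24 genes for Opa1 processing and cristae 2 fell (8.33%, against 11.7% of all genes) and 1 rose (4.17%, against 9.72%). These counts came to 1 to 3 and 0 to 2 with 1 library left out. By edgeR 0 rose without replicate 1 of either group, and 1 fell without shMtfr1l replicate 2 or double-knockdown replicate 3. Immt, the core of the cristae junction complex, stood at 124, 142 and 136 CPM in shMtfr1l and 106, 104 and 112 CPM in the double knockdown (log2 fold change -0.32 ± 0.07, adjusted p = 0.000522). Of 24 biogenesis genes 1 fell (4.17%, against 11.7% of all genes) and 2 rose (8.33%, against 9.72%). The member that fell was Ppargc1a, the coactivator PGC-1 alpha, from 8.73, 5.61 and 4.47 CPM to 1.2, 1.28 and 1.64 CPM (log2 fold change -2.19 ± 0.37, adjusted p = 1.89e-05). Its highest value was in shMtfr1l replicate 1, the library with the adipocyte markers, and the range of its fold change over 17 settings of the analysis was -2.52 to -1.78. The mitochondrial polymerase gene Polg (0.31, adjusted p = 0.00102) and Pprc1, a coactivator related to Ppargc1a (0.31, adjusted p = 0.00398), rose.

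Some protein quality control genes rose. Of 21 mitochondrial chaperones and proteases 5 rose (23.8%, against 9.72% of all genes) and 1 fell, which did not pass without shMtfr1l replicate 3 or double-knockdown replicate 1. Hspa9, the mitochondrial Hsp70 of the import motor, rose from 405, 425 and 438 CPM to 496, 520.4 and 505 CPM (log2 fold change 0.26 ± 0.05, adjusted p = 8.23e-05), and the presequence protease Pitrm1 from 86.4, 89.1 and 87.8 CPM to 119.8, 116 and 118 CPM (log2 fold change 0.43 ± 0.06, adjusted p = 8.58e-07). The chaperonin Hspd1 rose by 0.38 on the log2 scale (adjusted p = 0.000425). Hsph1 of the Hsp110 family, a mainly cytosolic chaperone that is also counted among these 5, rose by 0.50 (adjusted p = 6.71e-07). Of 28 import genes 3 rose, among them the outer membrane channel Tomm40 (0.47, adjusted p = 1.08e-05) and the receptor Tomm70a (0.44, adjusted p = 1.12e-05). The share of import genes that rose (10.7%) was near that of all genes, and 5 rose without shMtfr1l replicate 2.

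Of 77 respiratory chain and ATP synthase genes 12 fell (15.6%) and 1 rose, with a median of -0.10 (log2), and 58 had a fold change below 0 (49.5% of all genes did). The share that fell was close to the 11.7% of all genes, and it depended on the libraries, with 4 falling without shMtfr1l replicate 2, 7 without shMtfr1l replicate 3, and 6 and 7 without replicates 1 and 3 of the double knockdown. Cox5a of complex IV stood at 85.3, 92.9 and 90.1 CPM in shMtfr1l and at 69.1, 71.2 and 78.5 CPM in the double knockdown (log2 fold change -0.29 ± 0.08, adjusted p = 0.00449). Ndufa11 of complex I fell by 0.33 (log2; adjusted p = 0.00131). Of 32 genes for pyruvate entry and the tricarboxylic acid cycle 6 fell (18.8%, against 11.7% of all genes). A further 3 rose (9.38%, near the 9.72% of all genes). Among the falls were Pdha1 of pyruvate dehydrogenase (-0.25, adjusted p = 0.000331), the cytosolic malate dehydrogenase Mdh1 (-0.29, adjusted p = 0.000646) and the pyruvate carrier subunit Mpc2 (-0.42, adjusted p = 0.00117). Without replicate 3 of the double knockdown 3 members fell, and without replicate 1 of either group 1 rose.

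Part of the fatty acid oxidation genes fell. Of 29 genes for fatty acid uptake and oxidation 13 fell (44.8%) and the other 16 did not pass (median -0.23 log2). Acaa2, the mitochondrial thiolase that ends each oxidation cycle, fell from 102, 96.1 and 114 CPM to 56.4, 56.5 and 64.6 CPM (log2 fold change -0.81 ± 0.08, adjusted p = 7.06e-10). Cpt1a, the carnitine palmitoyltransferase that admits fatty acids to mitochondria, fell from 142, 135 and 147 CPM to 98.4, 100.5 and 106 CPM (log2 fold change -0.48 ± 0.07, adjusted p = 6.93e-07). Lipoprotein lipase, Lpl, fell by 0.23 (log2; adjusted p = 0.000626). In shMtfr1l replicate 1, where adipocyte genes were counted, Acaa2 and Cpt1a lay between the other 2 libraries, and Lpl was highest (914.4 CPM, against 891.4 and 891.6 CPM). The part of adipocytes in these falls was not tested. With any 1 library left out, 11 or 12 members fell. The lipid droplet gene Plin4 was at 15.9, 4.91 and 5.39 CPM in shMtfr1l and 3.15, 3.19 and 3.28 CPM in the double knockdown (adjusted p = 0.00188). Without shMtfr1l replicate 1 it did not pass (log2 fold change -0.68, adjusted p = 0.147).

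Many sterol and fatty acid synthesis genes fell. Of 37 tested 16 fell (43.2%) and the other 21 did not pass (median -0.20 log2). Hmgcs1, which commits acetyl-CoA to the mevalonate pathway, stood at 109, 125 and 127 CPM in shMtfr1l and at 75.6, 74.5 and 79.8 CPM in the double knockdown (log2 fold change -0.65 ± 0.07, adjusted p = 2.41e-09). The desaturase Fads1 fell from 207, 224 and 217 CPM to 129.5, 120.2 and 127 CPM (log2 fold change -0.78 ± 0.06, adjusted p = 3.81e-13). Insig1, the sterol-sensing brake of SREBP processing, fell by 0.59 (log2; adjusted p = 1.98e-07). Of 26 list members with a promoter window only Hmgcs1 held the sterol element TCACNCCAC on either strand, against 159 of all 11213 genes (1.42%). Glycolysis and hypoxia genes were split, with 8 of 35 rising (22.9%, against 9.72% of all genes) and 6 falling (17.1%, against 11.7%). Eno3, the muscle enolase, fell from 133, 126 and 155 CPM to 65.6, 68.4 and 68.9 CPM (log2 fold change -1.03 ± 0.08, adjusted p = 2.48e-13), the oxidoreductase Ero1l by 0.44 (log2; adjusted p = 1.15e-07), while the peptide hormone gene Adm rose by 0.60 (adjusted p = 1.83e-10) and the glucose carrier Slc2a1 by 0.49 (adjusted p = 2.19e-07).

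Many genes of the integrated stress response and of amino acid supply rose. Of 36 integrated stress response genes 12 rose (33.3%) and 4 fell (median 0.12 log2). The amino acid carrier Slc7a5 went from 258, 264 and 249.8 CPM to 366, 361 and 351 CPM (log2 fold change 0.48 ± 0.05, adjusted p = 3.01e-09). The cystine carrier Slc7a11 rose from 12.9, 13.7 and 13.2 CPM to 20.6, 22.2 and 22.8 CPM (log2 fold change 0.72 ± 0.13, adjusted p = 6.9e-05). The arginine carrier Slc7a1 rose by 0.35 (log2; adjusted p = 1.38e-05), and Stc2, a secreted glycoprotein, fell by 0.56 (adjusted p = 9.21e-08). Of 21 genes for serine, folate and proline synthesis 11 rose (52.4%) and 2 fell, with a median of 0.34 (log2); 1 fell without shMtfr1l replicate 1 or without any 1 of the double-knockdown libraries. Shmt2, the mitochondrial serine hydroxymethyltransferase, went from 59.1, 66.4 and 67.4 CPM to 97.5, 95.3 and 95.4 CPM (log2 fold change 0.58 ± 0.07, adjusted p = 9.18e-08). Phgdh, which opens serine synthesis, rose from 35.1, 41.5 and 36.5 CPM to 57.8, 60.7 and 52.0 CPM (log2 fold change 0.59 ± 0.09, adjusted p = 2.59e-06). Mthfd1l, a mitochondrial folate enzyme, rose by 0.62 (log2; adjusted p = 1.73e-06) and Aldh18a1, which starts proline synthesis, by 0.43 (adjusted p = 5.57e-06). Of 20 aminoacyl-tRNA synthetases 13 rose (65.0%) and the other 7 did not pass, with a median of 0.26 (log2). Cars, the cysteinyl enzyme, went from 84.1, 91.2 and 88.6 CPM to 122, 118 and 116 CPM (log2 fold change 0.43 ± 0.07, adjusted p = 6.71e-06), and with 1 library left out 11 to 13 members rose.

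ATF4 and its partners bind the C/EBP-ATF response element, searched here as TGATGNAA on both strands of the same promoter windows after the list results were seen. It was found in 320 of all 11213 genes (2.85%), in 5 of 13 synthetase genes with a window (38.5%) and in 10 of 31 integrated stress response genes (32.3%). The 5 synthetase genes with the element were all among the 8 with a window that rose, while of the integrated stress response genes 4 of 10 that rose held it and 6 of 17 that did not pass. In the serine, folate and proline list 2 of 17 held it, both among members that did not pass. The stretches below, from GRCm38.p6, show the element in capitals in 3 synthetase genes and 3 stress response genes that rose, in the direction of the gene. Aars, Gars and Tars rose by 0.26, 0.30 and 0.29 (log2; adjusted p = 0.000105, 0.000154 and 0.00178), Asns, which makes asparagine, by 0.31 (adjusted p = 0.000781) and the stress factor Atf3 by 0.73 (adjusted p = 0.000133). They lie at chr8:111033704-111033763 (plus strand), chr6:55037945-55038000 (plus), chr15:11399659-11399699 (minus), chr6:7693210-7693258 (minus), chr1:191183410-191183469 (minus) and chr3:50443646-50443705 (minus), in the order of the lines. In Asns and Slc7a11 the capitals read as the element itself and in the other 4 as its reverse complement. The Slc7a11 stretch holds another match, left in lower case, in reverse complement and 47 to 40 bases before the start.
Aars: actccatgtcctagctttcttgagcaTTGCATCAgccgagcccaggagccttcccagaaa
Gars: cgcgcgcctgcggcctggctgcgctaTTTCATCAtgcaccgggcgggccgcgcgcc
Tars: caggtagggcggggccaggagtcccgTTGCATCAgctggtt
Asns: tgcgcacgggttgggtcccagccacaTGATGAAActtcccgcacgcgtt
Atf3: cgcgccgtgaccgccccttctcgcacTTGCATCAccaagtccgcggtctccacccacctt
Slc7a11: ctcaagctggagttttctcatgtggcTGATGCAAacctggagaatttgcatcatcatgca

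Other stress programmes were mixed. Of 27 genes of the unfolded protein response of the endoplasmic reticulum 7 fell (25.9%) and 4 rose. With single libraries left out, 4 fell without double-knockdown replicate 2, 2 rose without shMtfr1l replicate 1 or 3, and 1 rose without double-knockdown replicate 1. The chaperone Dnajb9 fell from 35.8, 43.0 and 42.3 CPM to 21.2, 21.5 and 23.2 CPM (log2 fold change -0.88 ± 0.12, adjusted p = 3.9e-07), and the sensor Atf6 (-0.39, adjusted p = 5.94e-06) and the degradation adaptor Sel1l (-0.40, adjusted p = 2.94e-06) fell with it. Of 31 NRF2 and antioxidant genes 11 rose (35.5%) and 3 fell (1 without double-knockdown replicate 1). Beside Slc7a11 these included thioredoxin reductase Txnrd1 (0.25, adjusted p = 0.000565), heme oxygenase Hmox1 (0.28, adjusted p = 0.00174) and glutathione peroxidase Gpx1 (0.25, adjusted p = 0.0026). Of 27 p53 and apoptosis genes 8 rose (29.6%) and 3 fell (11.1%), beside 9.72% and 11.7% of all genes. The p53 ligase Mdm2 rose by 0.38 on the log2 scale (adjusted p = 1.88e-05) and the survival gene Bcl2l1 by 0.36 (adjusted p = 5.58e-05). The p53 targets Eda2r and Ccng1 fell by 0.68 and 0.36 (adjusted p = 1.39e-09 and 1.58e-07). Of 33 mitophagy, autophagy and lysosome genes 10 fell (30.3%) and 4 rose (2 without double-knockdown replicate 2). Bnip3l, a mitophagy receptor, went from 86.0, 80.6 and 100.2 CPM to 55.2, 64.7 and 60.7 CPM (log2 fold change -0.56 ± 0.08, adjusted p = 9.34e-07). The autophagosome protein Map1lc3b fell by 0.41 (log2; adjusted p = 7.75e-07), the cargo receptor Sqstm1 by 0.31 (adjusted p = 5.95e-06) and the mitochondrial kinase Pink1, named after its values were seen, by 0.32 (adjusted p = 0.000213), while the conjugation factor Atg12 rose by 0.53 (adjusted p = 8.79e-06).

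Many immediate early genes rose, with 11 of 23 called higher (47.8%) and 1 lower (median 0.28 log2). Klf4, a zinc finger factor that keeps fibroblasts and stem cells from differentiating, stood at 29.2, 32.3 and 24.5 CPM in shMtfr1l and at 94.2, 91.6 and 89.8 CPM in the double knockdown (log2 fold change 1.68 ± 0.08, adjusted p = 6.56e-18). Every double-knockdown value was above every shMtfr1l value. The phosphatase Dusp1 rose from 32.4, 35.2 and 32.6 CPM to 61.4, 62.7 and 47.2 CPM (log2 fold change 0.78 ± 0.09, adjusted p = 2.74e-08), Klf2 by 0.79 (log2; adjusted p = 1.04e-06) and the growth regulator Myc by 0.78 (adjusted p = 3.72e-05). In the Notch, Wnt, BMP and Hippo list 9 of 31 rose (29%, against 9.72% of all genes) and 5 fell (16.1%, against 11.7%). The number that fell was 3 without shMtfr1l replicate 1 or 3 or double-knockdown replicate 3. The Wnt modulator Dkk3 fell from 213, 203 and 202 CPM to 79.6, 83.4 and 66.9 CPM (log2 fold change -1.43 ± 0.09, adjusted p = 1.95e-11), the Notch ligand Jag1 rose from 54.5, 48.9 and 49.4 CPM to 106, 85.6 and 91.4 CPM (log2 fold change 0.89 ± 0.08, adjusted p = 7.84e-11), and the Wnt antagonist Sfrp2 rose from 1.82, 2.86 and 1.97 CPM to 8.38, 9.69 and 10.8 CPM (log2 fold change 2.12 ± 0.21, adjusted p = 3.85e-10). The groups did not overlap in these 3 genes, and the Wnt feedback inhibitor Nkd1 fell by 0.87 (log2; adjusted p = 1.64e-09).

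Of 33 inflammation and chemokine genes 10 rose (30.3%) and 2 fell, with a median of 0.43 (log2). Complement C3 went from 48.4, 44.4 and 36.0 CPM to 103, 96.1 and 121 CPM (log2 fold change 1.31 ± 0.12, adjusted p = 5.32e-07) and the decoy receptor Tnfrsf11b from 29.7, 31.4 and 38.0 CPM to 49.9, 54.1 and 62.4 CPM (log2 fold change 0.75 ± 0.10, adjusted p = 4.15e-07), while the complement inhibitor Serping1 fell by 0.55 (log2; adjusted p = 2.55e-08). The leukocyte sum was also higher in every double-knockdown library, as given above, and its part in these genes was not tested. Of 44 interferon response genes 1 rose (2.27%, against 9.72% of all genes), with a median of 0.25 (log2). It did not pass without double-knockdown replicate 1, and 5 passed without double-knockdown replicate 3.

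Cell cycle genes rose in part: 10 of 45 passed (22.2%), all upward, with a median of 0.13 (log2). The replication licensing factor Cdt1 went from 11.2, 11.6 and 9.92 CPM to 22.6, 21.6 and 17.7 CPM (log2 fold change 0.93 ± 0.15, adjusted p = 1.6e-05), the helicase subunit Mcm5 rose by 0.48 (log2; adjusted p = 0.000157) and cyclin D1, Ccnd1, by 0.63 (adjusted p = 0.0052). The count was 4 without replicate 1 and 5 without replicate 3 of the double knockdown, and 6 without replicate 1 or 3 of shMtfr1l, while 1 member fell without shMtfr1l replicate 1 and 2 without double-knockdown replicate 3. Of 25 chromatin regulators known as barriers or aids to reprogramming 5 fell (20%, against 11.7% of all genes) and 4 rose (16%, against 9.72%). The number that rose was 2 without shMtfr1l replicate 2 or 3 or double-knockdown replicate 3. The Polycomb gene Bmi1, a known barrier to cardiac reprogramming, fell from 62.7, 62.7 and 68.4 CPM to 38.1, 40.4 and 42.8 CPM (log2 fold change -0.68 ± 0.09, adjusted p = 1.06e-07), the DNA methyltransferase Dnmt3a by 0.48 (log2; adjusted p = 7.05e-07) and the methylcytosine dioxygenase Tet1 by 0.93 (adjusted p = 7.17e-05), while the maintenance methyltransferase Dnmt1 rose by 0.39 (adjusted p = 0.000112). Cytosolic ribosomal proteins (6 of 73) and mitochondrial ribosomal proteins (7 of 77) rose in shares of 8.22% and 9.09%, near the 9.72% of all genes. With single libraries left out, 1 cytosolic gene rose without replicate 1 of either group, and 3, 4 and 1 mitochondrial genes rose without shMtfr1l replicate 1, shMtfr1l replicate 3 and double-knockdown replicate 2. The plot of the lists shows every tested member.

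**Figure D4:**
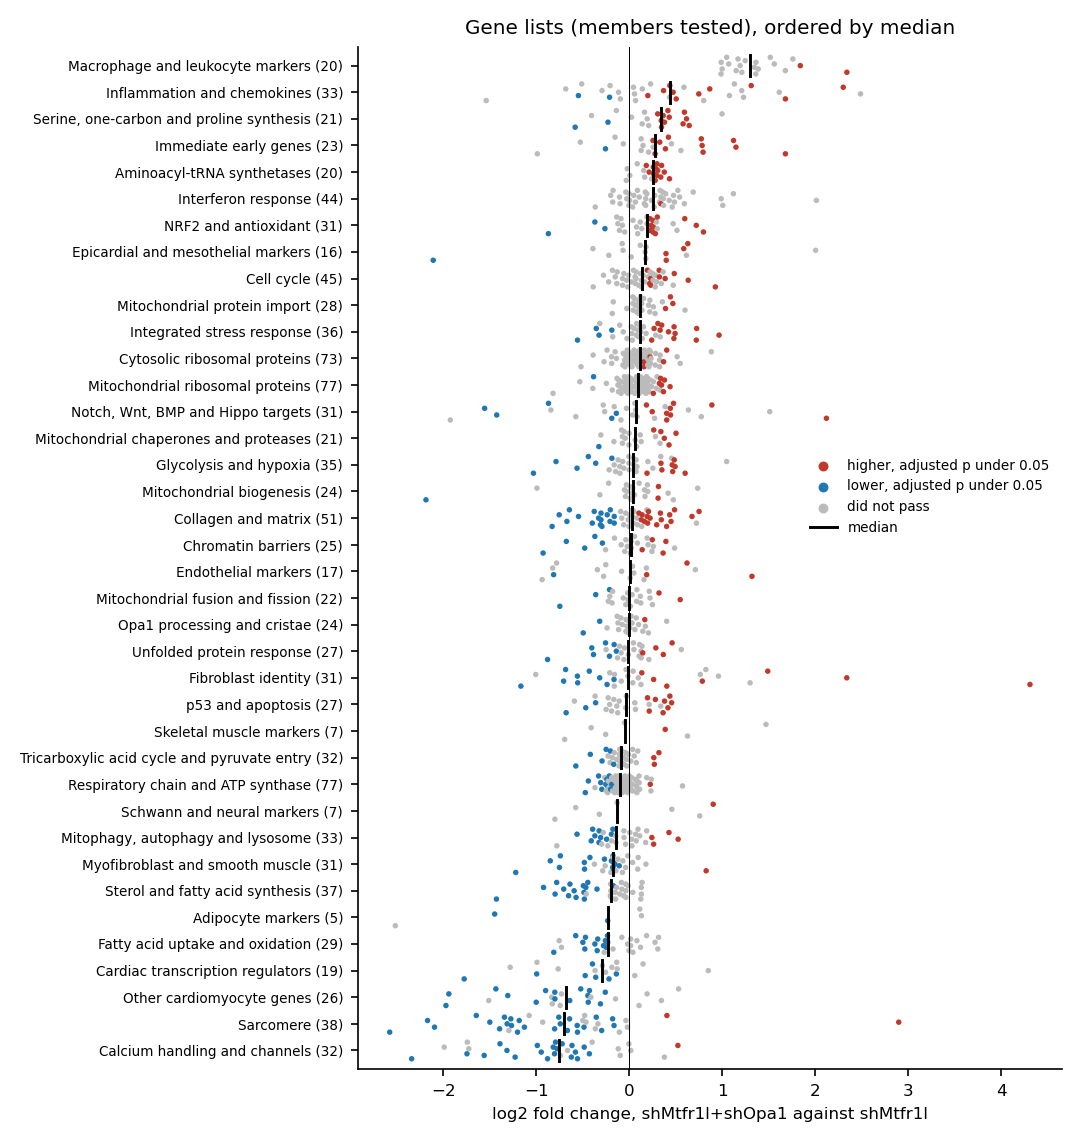
Log2 fold change of the double knockdown over shMtfr1l for every tested member of each list with at least 5 members tested, 1 row per list ordered by its median (black bar), with the number of members tested in brackets; vertical scatter within a row only separates points. The calcium-handling, sarcomere and other cardiomyocyte rows have the lowest medians (-0.76, -0.70 and -0.68), and the leukocyte row the highest (1.30) with 2 of its 20 members called.

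Opa1 knockdown was then compared with and without lowered Mtfr1l. The contrast of shOpa1 with shNT shares no library with the contrast above, and 4164 genes passed in it (29.4%), 2025 higher (14.3%) and 2139 lower (15.1%). Of the 3041 genes called with Mtfr1l lowered, 2807 had the same sign without it (92.31%, against 72.13% of all genes tested). A total of 2023 genes were called in both, which is 66.52% of the first list and 48.58% of the second. Over the 14162 genes the log2 fold changes had a Pearson correlation of 0.48, a description over genes, which share libraries and are not independent. The test of the difference between the 2 responses called 504 genes (3.56%), 222 with a higher (1.57%) and 282 with a lower response (1.99%) where Mtfr1l was lowered. By the sign of the fold change alone, 246 of these had the same sign in both and a smaller change with Mtfr1l lowered, 40 had the same sign and a larger change, and 218 had opposite signs. Of the 504, 271 were themselves called in the double knockdown against shMtfr1l: 128, 40 and 103 of the 3 kinds. The count of 504 became 222 without replicate 1 and 161 without replicate 2 of all 4 groups. Opa1 itself had a log2 fold change of -2.82 without and -1.98 with Mtfr1l knockdown. Its mean was 8.96 CPM in shOpa1 and 18.3 CPM in the double knockdown. The part of this unequal Opa1 knockdown in the differences between the 2 responses was not tested.

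The cardiac genes held examples of each kind. Gja1 fell in both (log2 fold change -1.51 without and -1.39 with Mtfr1l knockdown; difference 0.12 with SE 0.08, adjusted p = 0.531), and so did Tnnt2 (-0.61 and -0.67; difference -0.06 with SE 0.06, adjusted p = 0.729). Myom1, an M-band protein, rose by 0.23 with Opa1 knockdown alone and fell by 0.36 where Mtfr1l was lowered (log2; difference -0.59, adjusted p = 0.000336). Its rise did not pass without replicate 1, 2 or 3 of all 4 groups (edgeR adjusted p = 0.0598, 0.0734 and 0.0512). Its fall did not pass without replicate 1 of all 4 groups (edgeR adjusted p = 0.055). Mb and Trdn, the triadin of the calcium release complex, did not pass without Mtfr1l knockdown (-0.08 and 0.02) and fell with it (-1.31 and -0.82; differences -1.22 and -0.84, adjusted p = 0.00157 and 0.00068). In Atp2a2 (difference -0.41, adjusted p = 0.00501), Sln (-0.61, 0.0213) and Tnni3 (-0.91, 0.0107) the fall was larger with Mtfr1l lowered; the fall of Tnni3 without it did not pass with the replicate block (edgeR adjusted p = 0.0547). The reverse held for Fhl2, which fell by 0.83 without and 0.52 with Mtfr1l knockdown (difference 0.31, adjusted p = 0.00563). Of the 2 sarcomere genes that rose, Xirp2 went up by 4.0 without and 2.90 with Mtfr1l knockdown (difference -1.11, adjusted p = 0.045), and Synpo2l by 1.38 and 0.41 (difference -0.97, adjusted p = 5.42e-06). The Xirp2 difference did not pass with the replicate block (edgeR adjusted p = 0.0596) or without any 1 of the 6 libraries except shMtfr1l replicate 3 (0.0509 to 0.14), and that of Sln did not without replicate 1 of shMtfr1l (0.0757) or of the double knockdown (0.0719). Without replicate 1 of all 4 groups the differences of Mb, Trdn, Atp2a2, Tnni3 and Fhl2 did not pass (edgeR adjusted p = 0.0652 to 0.153). Without replicate 2 of all 4 groups those of Mb, Tnni3, Sln, Fhl2 and Xirp2 did not (0.0769 to 0.42). Without replicate 3 of all 4 groups those of Tnni3, Sln and Xirp2 did not (0.0773 to 0.223). In all, 7 of 38 sarcomere genes and 6 of 32 calcium genes differed between the 2 responses, beside 3.56% of all genes.

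Matrix genes had the largest number of differences among the lists, which differ in size: 22 of 51, beside 504 of all 14162 genes (3.56%). Col3a1 rose by 0.44 without and 0.75 with Mtfr1l knockdown (difference 0.31, adjusted p = 7.26e-05). Lox fell by 0.92 and by 0.24 (difference 0.69, adjusted p = 7.7e-10), with group means of 1782 CPM in shNT, 941 CPM in shOpa1, 1073 CPM in shMtfr1l and 910.5 CPM in the double knockdown. A set of 28 genes passed in both contrasts with opposite signs, and all 28 passed the test of the difference. Vcam1, a cell adhesion gene, was at 278 and 188 CPM in shNT and shOpa1, and at 182, 168 and 173 CPM in shMtfr1l and 190.5, 197 and 213 CPM in the double knockdown (difference 0.76, adjusted p = 5.77e-08). Its rise with Mtfr1l lowered did not pass without replicate 3 of the double knockdown (log2 fold change 0.15, adjusted p = 0.0828). The acute phase gene Saa3 was at 11 and 2.5 CPM, and at 1.35, 0.526 and 1.22 CPM and 2.66, 5.14 and 2.19 CPM (difference 3.81, adjusted p = 2.16e-05), the largest difference of the genes named here, at a low level. Klf4 rose in both, by 1.01 and 1.68 (difference 0.67, adjusted p = 0.000281), and C3 by 0.50 and 1.31 (difference 0.81, adjusted p = 0.00939). Aminoacyl-tRNA synthetases rose in the same number, 13 of 20, in each contrast. For Cars the responses were 0.35 without and 0.43 with Mtfr1l knockdown (difference 0.09 with SE 0.10, adjusted p = 0.754). The plot of the 2 responses shows both kinds of gene.

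**Figure D5:**
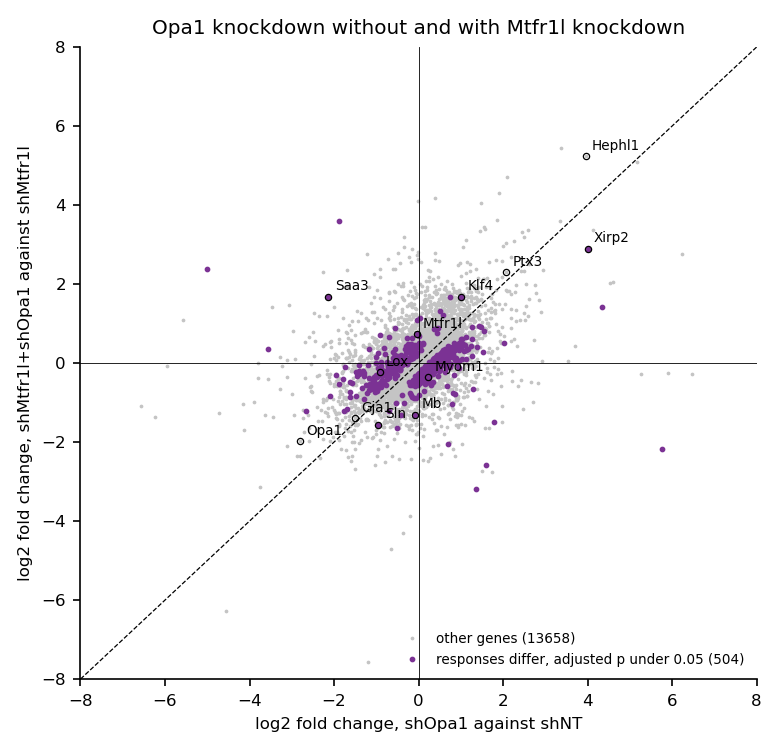
Each point is 1 of 14162 genes; the horizontal axis is the log2 fold change of shOpa1 over shNT and the vertical axis that of the double knockdown over shMtfr1l, with the dashed line at equal response. Purple marks the 504 genes whose responses differed at adjusted p under 0.05; Gja1 lies near the line, Xirp2 below it, and Saa3 and Myom1 in quadrants of opposite sign.

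The levels of the 4 groups set these changes in place. Contrasts that share libraries are given side by side only. The 38 sarcomere genes had a median log2 fold change of 0.67 in shMtfr1l over shNT, with 26 higher (5.56% of all genes were higher and 5.19% lower in that contrast), of -0.70 in the double knockdown over shMtfr1l, and of 0.00 in the double knockdown over shNT, with 10 higher and 8 lower (11.2% and 11.9% of all genes). Calcium-handling genes had medians of 0.28, -0.76 and -0.34 in the same order. Myh6 averaged 50.8 CPM in shNT, 245 CPM in shMtfr1l, 30.4 CPM in shOpa1 and 86.8 CPM in the double knockdown, whose mean lay between those of shNT and shMtfr1l. Atp2a2 averaged 1207, 2053, 921 and 1175 CPM in that order of groups, and the mean of the double knockdown was slightly below that of shNT. Gja1 averaged 189.6, 275, 66.4 and 105 CPM, with the double knockdown below shNT. Sterol genes had medians of -0.24 in shMtfr1l over shNT, -0.20 in the double knockdown over shMtfr1l and -0.58 in the double knockdown over shNT, with 28 of 37 lower in the last. For synthetases the medians were 0.02, 0.26 and 0.23, with 14 of 20 higher in the double knockdown than in shNT.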

How the data were processed

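RNA-seq gene counts were analysed from 12 of the 18 libraries of the series: 3 per group, with groups taken from the labels. The authors deposited raw counts per gene made with featureCounts 2.0.6 on mm10, strand-specific, with mates counted singly and without multi-mapping or multi-gene reads, per the file headers; because mates were counted singly, 65.86% of counts from 1 to 20 were even. Per the submitters' processing notes, FastQC and DESeq2 were used, with an aligner not given in the sources used here.

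Counts of 14162 of 23420 genes that passed edgeR's expression filter were fitted in R 4.3.3 with edgeR 4.0.16, and p-values were adjusted by Benjamini-Hochberg. The fit used TMM scaling, robust quasi-likelihood and edgeR's default prior count, with 12 libraries in 4 groups and 8 residual degrees of freedom. The common biological coefficient of variation was 12.04%. The spread was shared over all 4 groups so that both Opa1 contrasts and their difference came from 1 model. The scripts were tested on simulated data with known changes in 50 genes per size of change. They recovered 16% of 1.25-fold, 60% of 1.5-fold, 76% of 2-fold and 98% of 4-fold changes. No other genes were changed in the simulated data, while 21.5% of genes were called in the real contrast. The Benjamini-Hochberg cutoff was therefore stricter in the simulation, and these shares need not hold for the real data. Of the genes called in the simulation, 5.3% had not been changed. A gene that did not pass can therefore still have changed by a small amount. Genes were named by rule: both targets, the 10 largest rises and falls with at least 2 CPM and groups that did not overlap, and up to 4 called members of each list. Myh6, Ttn, Mybpc3, Tnni3, Actc1, Actn2, Myom1, Synpo2l, Atp2a2, Ryr2, Asph, Trdn, Mb, Corin, Nppa, Lox, Atf3, Asns, Aars, Gars, Tars, Pink1, Saa3 and Vcam1 were chosen outside it, after their values were seen. Some genes that the rule names are not reported here. The comparison, its 39 gene lists and the tests were chosen with earlier results of these data known, so the lists are descriptions and no list was tested as a set.

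Alternatives were other size factors, DESeq2 1.42.0, other count filters, the 6 libraries alone, a replicate block, a 1.2-fold null and each library left out; edgeR without robust shrinkage and thinning all libraries to the smallest total were added after seeing the data. The titles tie replicate numbers to days 7, 8 and 9, so the block stands for the day, and its values are given where they change a call. Deviations of same-numbered double-knockdown and shMtfr1l libraries from their group means correlated at -0.036 to 0.013.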

Additional observations from a re-analysis of the deposited data

Results flagged for a closer look

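For 29 named genes the response to Opa1 knockdown differed with and without the Mtfr1l hairpin by the test of the difference itself (edgeR quasi-likelihood, adjusted p under 0.05 over all genes). Values are the log2 fold change of the double knockdown over shMtfr1l minus that of shOpa1 over shNT. A negative value means a lower response where Mtfr1l was lowered. The Opa1 level left also differed between the double knockdown and shOpa1, as given above, and its part in these differences was not tested.

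Among muscle genes the difference was negative for Mb (-1.22), Xirp2 (-1.11), Synpo2l (-0.97), Tnni3 (-0.91), Trdn (-0.84), Sln (-0.61), Myom1 (-0.59) and Atp2a2 (-0.41), and positive for Fhl2 (0.31). Among matrix, fibroblast and epicardial genes it was positive for Bnc1 (0.9), Lox (0.69), Mfap4 (0.49) and Col3a1 (0.31) and negative for the myofibroblast genes Itga8 (-0.56) and Tgfb3 (-0.26). Among immune and early response genes it was positive for Saa3 (3.81), C3 (0.81), Vcam1 (0.76) and Klf4 (0.67).

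Among metabolic and stress genes it was negative for Lpl (-0.48), Hsph1 (-0.45), Hspd1 (-0.41), Adm (-0.41), Slc7a1 (-0.28) and Pdha1 (-0.27), and positive for Insig1 (0.46), Hmgcs1 (0.34) and Gpx1 (0.33). The hairpin target Mtfr1l differed by 0.78. With any 1 of the 6 libraries of the double knockdown and shMtfr1l left out, 20 of the 29 differences passed each time. Those of Xirp2, Sln, Tgfb3, Hspd1, Pdha1, Hmgcs1, Insig1, Slc7a1 and Gpx1 did not pass without at least 1 of them, and those of Xirp2, Tgfb3, Hmgcs1 and Slc7a1 did not with the replicate number as a block (edgeR adjusted p = 0.0596, 0.0705, 0.0665 and 0.0559). Without replicate 1 of all 4 groups the differences of Mb, Trdn, Atp2a2, Tnni3, Fhl2 and Hsph1 also did not pass (edgeR adjusted p = 0.0503 to 0.153). Without replicate 2 of all 4 groups those of Mb, Tnni3, Fhl2, Hsph1, Bnc1, Adm and Mtfr1l also did not (0.0769 to 0.172). Without replicate 3 of all 4 groups that of Tnni3 also did not (0.0773). None of the 29 turned its sign where it was tested.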

How the results depend on the processing

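The count of 3041 changed genes was 2846 to 3310 with DESeq2 size factors, the DESeq2 Wald test, other filters, the 6 libraries alone, a replicate block, no robust shrinkage or thinning, and 924 against a 1.2-fold null, which asks for a larger change. It was 1964 to 2876 with libraries left out, lowest without replicate 1 of all groups. The 504 genes with differing responses became 405 to 668 under the other settings, 411 with the replicate block, and 161 to 488 with libraries left out, lowest without replicate 2 of all groups (222 without replicate 1); the cause was not tested. For shOpa1 against shNT the count was 4003 to 4319, and 3020 to 3234 with libraries left out. The block gave 2846 and 4003 genes for the Opa1 contrasts, and among the named genes it ended the call of Cx3cr1, P2ry13, Lyl1 and Coro1a, and the difference of responses for 4 of the 29 genes that had one; no other call of the double knockdown against shMtfr1l among the named genes changed with it. Of the 143 named genes 120 passed under all 17 settings that test against no change and 23 under some, and no fold change turned its sign. Depth limits low genes, since 3 counts corresponded to 0.118 to 0.175 CPM in the 6 libraries.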
